A study of Homo sapiens with 12 samples.

Results

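Interferon-stimulated genes are the genes that cells switch on when interferon binds its receptor. This account covers 49 of them, listed by name, out of the 22506 genes in a deposited RNA-seq count table of human lung cancer cell lines. All 49 were found in the table, and 48 of them passed a low-count filter that left 14008 genes. RTP4, a chaperone that helps receptors reach the cell surface, did not pass, with at most 0.807 CPM (read counts scaled to the size of the library) in any library. The filter asked for reads in enough libraries and used no comparison between lines, and 47 of the 48 also held at least 10 reads in at least 4 of the 10 libraries other than the H1299 TIC and knockdown libraries. The exception was TRIM22, which outside those H1299 libraries had reads only in CALU. It passed only through the H1299 libraries where it was high, and it is kept in the counts below.

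The series holds 12 libraries from the cell lines H1299, CALU, CHAGO and H1703. Each line was sequenced once as tumor-initiating cells (TICs) with PRKCI knocked down, once as TICs, and once as adherent parental cells. PRKCI encodes protein kinase C iota. The sources used here do not say how PRKCI was knocked down, how the TICs were grown or whether the states were cultured side by side. Each combination of line and state is 1 library, so a difference inside a line has no replicate, and the lines stand as the replicates of a state (n = 4).

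Depth ran from 21165030 to 36060810 reads in the libraries of H1299 and H1703 and from 63759326 to 91763055 in those of CALU and CHAGO. PRKCI was at 25.8, 41.5, 23.2 and 58.1 CPM in the knockdown TICs of H1299, CALU, CHAGO and H1703, against 199, 237, 608 and 342 CPM in their TICs. Of 8 epithelial markers, the summed level was 23.3, 28.1 and 25.6 CPM in knockdown TICs, TICs and parental cells of H1299 and only 0.463, 0.99 and 1.64 CPM in those of H1703. The same markers summed to 2070, 1920 and 1580 CPM in CHAGO. In CALU the sums lay between those of H1299 and CHAGO, with KRT19 alone at 112, 151 and 237 CPM. TP63, a marker of squamous cells, was at most 0.225 CPM in H1703 and at most 0.132 CPM in H1299. In knockdown TICs, TICs and parental cells it was at 43.9, 36.2 and 4.26 CPM in CHAGO and at 2.73, 45.2 and 3.05 CPM in CALU.

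Type I interferons bind the receptor IFNAR, whose kinases activate the transcription factor complex ISGF3, which holds STAT2 and IRF9 and binds the interferon-stimulated response element (ISRE) in the promoters of its targets. Type II interferon acts through another element, the gamma-activated site (GAS). The products of the targets block viruses by binding or degrading RNA, by conjugating the ubiquitin-like protein ISG15, by restricting entry and budding, and by feeding peptides to antigen presentation. Tumor cells are known to express these genes also without infection.

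The promoter sequences show the element that most of the listed genes share. RefSeq promoter windows on GRCh38.p14, each with 250 bases before and 50 after the start of the gene, were matched by symbol for 42 of the 49 genes. The core of the ISRE was searched as GAAANNGAA on one strand and TTCNNTTTC on the other, and the core of the GAS as TTCNNNGAA, which reads the same on both strands. An ISRE core stood in 27 of the 42 windows (64.3%), against 8.29% of 27305 windows in the table and 6.57% of the windows of genes that passed the low-count filter. A GAS core stood in 10 of the 42 (23.8%), against 7.88% and 6.35%. Of the GAS cores in these windows, 4 overlapped an ISRE core. A match is a description of the letters and was not tested for binding. The sequences below run 5′ to 3′ on the strand of the gene, with 15 bases on either side of 1 ISRE core, and capitals mark that core. They are shown for genes with large H1299 differences and for RSAD2, which had none.
ISG15, chr1:1013381-1013419, plus strand: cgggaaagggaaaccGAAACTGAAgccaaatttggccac
IFIT1, chr10:89392506-89392544, plus strand: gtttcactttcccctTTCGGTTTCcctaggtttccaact
BST2, chr19:17405731-17405769, minus strand: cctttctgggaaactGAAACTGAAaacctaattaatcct
IFI6, chr1:27672262-27672300, minus strand: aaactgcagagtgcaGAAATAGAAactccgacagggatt
IFI27, chr14:94110626-94110664, plus strand: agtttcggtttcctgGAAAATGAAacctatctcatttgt
IFI44L, chr1:78620360-78620398, plus strand: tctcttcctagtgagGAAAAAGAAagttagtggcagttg
RSAD2, chr2:6865791-6865829, plus strand: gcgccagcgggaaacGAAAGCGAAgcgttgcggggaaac
The whole 250 bases before the start of ISG15 hold ISRE cores in capitals, while those of OAS1 hold no match to the searched pattern. Near their end they do hold gaaacgaaac, a similar stretch with a shorter spacing that the search did not count. A gene without a match can therefore still hold a similar element.
ISG15 upstream, chr1:1013247-1013496, plus strand: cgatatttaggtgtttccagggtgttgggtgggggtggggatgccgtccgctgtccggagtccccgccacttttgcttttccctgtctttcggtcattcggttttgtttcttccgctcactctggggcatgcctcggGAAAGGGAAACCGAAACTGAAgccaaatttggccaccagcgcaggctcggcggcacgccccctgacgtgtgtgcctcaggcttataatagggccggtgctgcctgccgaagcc
OAS1 upstream, chr12:112906712-112906961, plus strand: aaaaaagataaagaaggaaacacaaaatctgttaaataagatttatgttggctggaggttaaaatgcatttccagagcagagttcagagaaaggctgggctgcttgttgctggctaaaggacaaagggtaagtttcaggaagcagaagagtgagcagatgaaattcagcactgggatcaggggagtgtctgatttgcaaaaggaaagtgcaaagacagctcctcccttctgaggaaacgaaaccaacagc
Among the tested genes with a window, the 26 with an ISRE core had a median H1299 TIC minus parental difference of 4.35 log2 CPM (lowest 0, highest 10.94). The 15 without a match to the pattern had a median of 3.36 (lowest 0.85, highest 10.51, for OAS1). In CALU the medians were 0.32 and 0.32, in CHAGO −0.21 and −0.33, and in H1703 0 and 0.

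**Figure D1:**
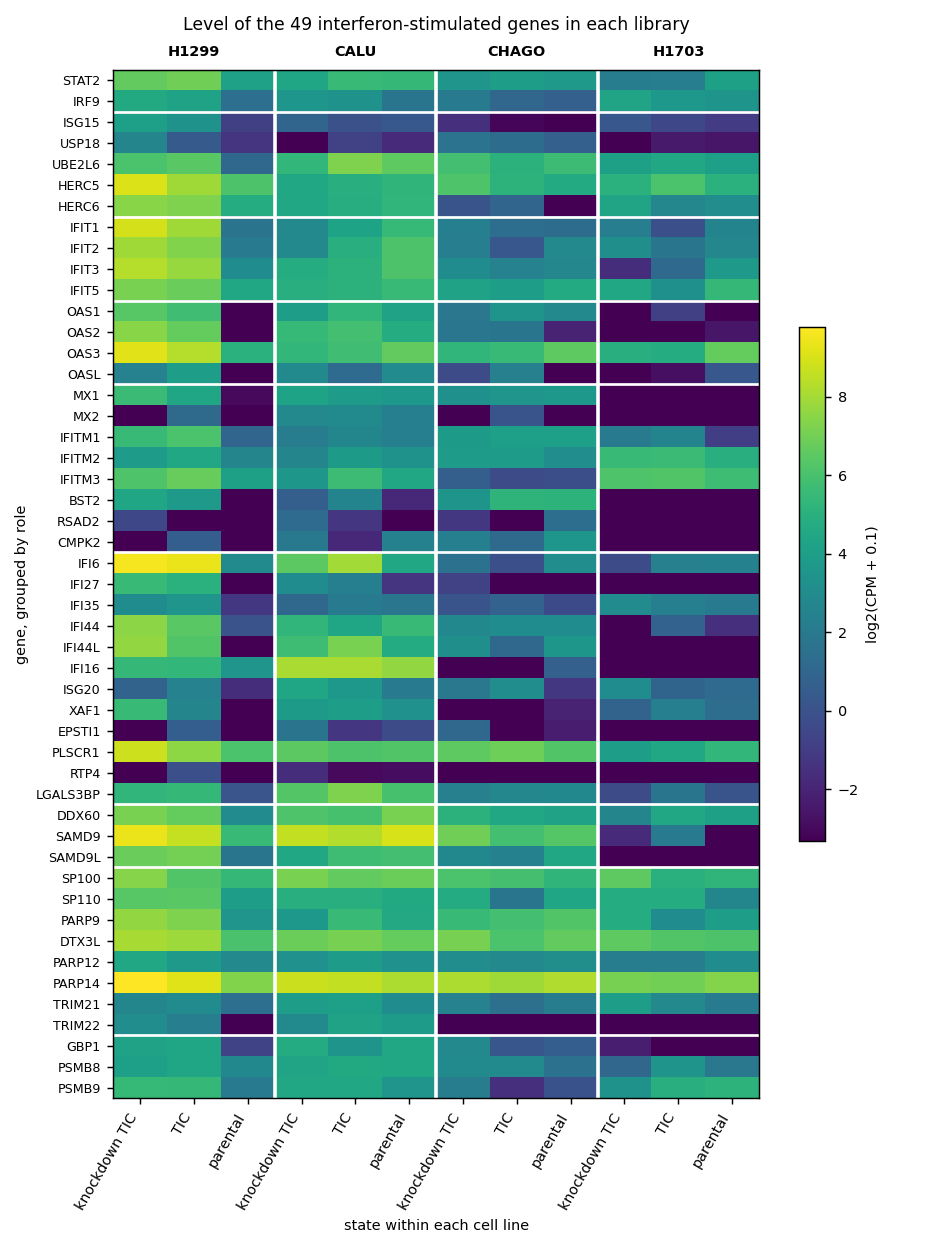
Heat map of the 49 genes (rows, grouped by role) in the 12 libraries (columns, with knockdown TIC, TIC and parental within each line); colour gives log2(CPM + 0.1), which is not scaled to gene length and so compares libraries along a row. The H1299 knockdown TIC and TIC columns are brighter than the H1299 parental column for nearly every row, and the 3 columns of CALU are more alike.

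In H1299 the listed genes were low in parental cells and high in both TIC libraries. They took 0.818% of all reads in H1299 knockdown TICs and 0.566% in H1299 TICs, against 0.0721% in H1299 parental cells. In CALU the shares were 0.208%, 0.256% and 0.233%, in CHAGO 0.114%, 0.0934% and 0.116%, and in H1703 0.0746%, 0.0677% and 0.0786%, in the same order of states. The median member was at 5.85 and 5.92 log2 CPM in the H1299 knockdown TICs and TICs, against 1.58 in the parental cells, while the median of all tested genes was 3.78, 3.85 and 3.76. Of the 49 genes, 4 had no read in H1299 knockdown TICs and 1 had none in H1299 TICs, against 13 in H1299 parental cells.

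Inside H1299, 45 of the 48 tested genes (93.8%) were at least 2-fold higher in TICs than in parental cells and 0 were 2-fold lower, beside 21.3% of all tested genes higher and 20.7% lower. The median difference was 4.35 log2 CPM, against 0 over all tested genes. The comparison of knockdown TICs with parental cells in H1299 gave 45 genes higher and 0 lower as well, beside 19.1% and 19% of all genes, and it shares the parental library. In the other lines the counts sat nearer the background. CALU TICs had 12 of the 48 genes 2-fold higher and 9 lower than CALU parental cells (19.4% and 15.9% of all genes), CHAGO 7 and 12 (14.9% and 17.7%), and H1703 9 and 7 (17.9% and 17.8%). The medians were 0.37 in CALU, −0.08 in CHAGO and 0 in H1703. At a 4-fold limit, 36 genes were higher in H1299 TICs (10.3% of all genes), against 5 in CALU (8.92%), 5 in CHAGO (6.49%) and 5 in H1703 (7.96%). On the lower side the counts were 0 in H1299 (8.44%), 1 in CALU (6.39%), 9 in CHAGO (8.49%) and 4 in H1703 (7.92%).

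**Figure D2:**
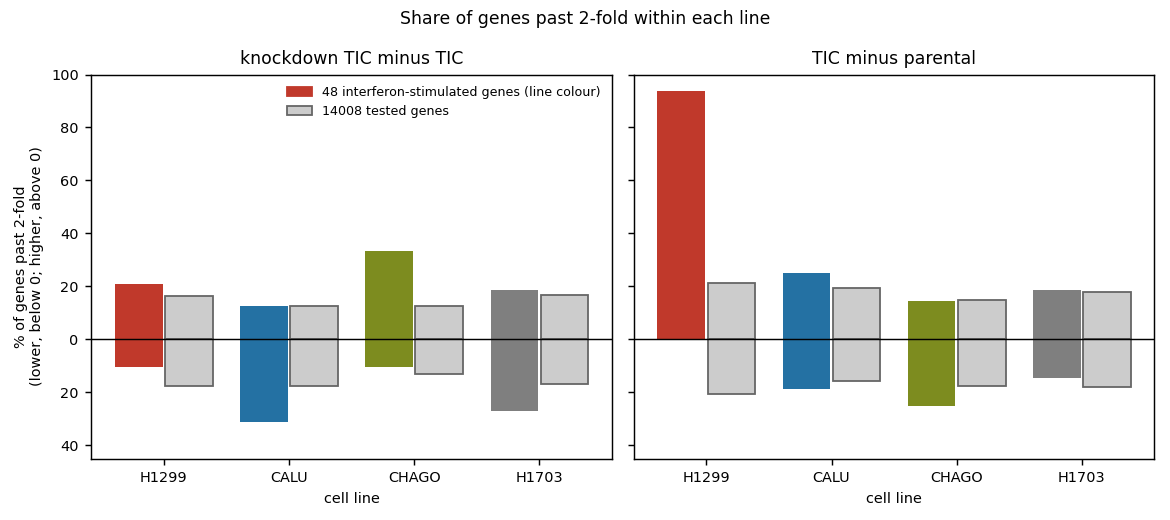
Bars give the percentage of the 48 tested interferon-stimulated genes (coloured) and of all 14008 tested genes (grey) that were at least 2-fold higher (above 0) or lower (below 0) in each line, for knockdown TIC minus TIC on the left and TIC minus parental on the right. The H1299 bar for TIC minus parental reaches 93.8% against 21.3% of all genes, and no other coloured bar passes 33.3%.

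STAT2 and IRF9 are the listed members of ISGF3. STAT2 stood at 99.7, 122 and 18 CPM in knockdown TICs, TICs and parental cells of H1299, at 21.6, 45.4 and 42.6 CPM in CALU, at 11.2, 15.6 and 12.9 CPM in CHAGO and at 4.59, 4.86 and 17.3 CPM in H1703. IRF9 was measured at 25.3, 18.6 and 2.7 CPM in knockdown TICs, TICs and parental cells of H1299, at 11.7, 10.5 and 3.36 CPM in CALU, at 4.22, 1.91 and 1.52 CPM in CHAGO and at 20.4, 12.6 and 10.8 CPM in H1703. STAT2 was higher in H1299 knockdown TICs and TICs than in any other library, and its H1299 parental level lay inside the range of the other parental libraries. IRF9 had its highest level in H1299 knockdown TICs, and its measured level was higher in TICs than in parental cells in each of the 4 lines. The ratio was only 1.17 in H1703 (95% counting interval 0.991 to 1.38) and 1.26 in CHAGO (0.974 to 1.63), and both intervals include no change. In H1299 TICs STAT2 was 6.8-fold higher than in parental cells (95% counting interval 6.27 to 7.38) and IRF9 6.89-fold (5.58 to 8.57). These intervals, and those that follow, cover counting error only.

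The ISG15 group holds the modifier ISG15, the protease USP18 that removes it, the E2 enzyme UBE2L6 and the ligases HERC5 and, known in mouse, HERC6. All 5 were at least 2-fold higher in H1299 TICs than in H1299 parental cells. ISG15 was at 16.7, 10.1 and 0.468 CPM in knockdown TICs, TICs and parental cells of H1299, at 1.82, 0.845 and 1.11 CPM in CALU, at 0.238, 0.0122 and 0 CPM in CHAGO and at 1.08, 0.63 and 0.4 CPM in H1703. USP18 stood at 6.13, 1.19 and 0.312 CPM in knockdown TICs, TICs and parental cells of H1299, at 0, 0.483 and 0.208 CPM in CALU, at 3.07, 2.36 and 1.53 CPM in CHAGO and at 0, 0.09 and 0.0727 CPM in H1703. ISG15 was low in every library outside the H1299 TICs and knockdown TICs, where it was 21.7-fold (13.5 to 37) higher in TICs than in parental cells. USP18 reached its highest level in the H1299 knockdown TICs, 5.14-fold (3.55 to 7.59) above the H1299 TICs, and it rested on 139 and 37 reads there. UBE2L6 was measured at 68.4, 85.7 and 2.08 CPM in knockdown TICs, TICs and parental cells of H1299, at 40.6, 155 and 93.5 CPM in CALU, at 58.4, 34.8 and 51.5 CPM in CHAGO and at 17.4, 22.7 and 16.8 CPM in H1703. HERC5 was at 552, 245 and 69 CPM in knockdown TICs, TICs and parental cells of H1299, at 22.1, 29.9 and 38.8 CPM in CALU, at 72.8, 35.9 and 25.5 CPM in CHAGO and at 32.5, 67.9 and 32.8 CPM in H1703. HERC6 stood at 177, 150 and 27.3 CPM in knockdown TICs, TICs and parental cells of H1299, at 22.6, 28.6 and 40 CPM in CALU, at 0.978, 1.81 and 0 CPM in CHAGO and at 20.3, 6.71 and 8.36 CPM in H1703. UBE2L6 was 41.2-fold (33 to 52.1) higher in H1299 TICs than in H1299 parental cells, but it was highest in CALU TICs and CALU parental cells. HERC6 was also higher in CHAGO TICs, with 148 reads against 0 in CHAGO parental cells, at least 40.2-fold at a limit of 3 reads per library.

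The IFIT proteins bind viral RNA that lacks the host cap structure. IFIT1 was measured at 494, 244 and 3.22 CPM in knockdown TICs, TICs and parental cells of H1299, at 7.23, 19.4 and 43.5 CPM in CALU, at 4.98, 2.53 and 2.4 CPM in CHAGO and at 4.71, 0.81 and 5.85 CPM in H1703. IFIT2 was at 240, 157 and 4.26 CPM in knockdown TICs, TICs and parental cells of H1299, at 7.05, 30.1 and 69.9 CPM in CALU, at 4.74, 1.06 and 7.11 CPM in CHAGO and at 9.19, 3.33 and 6.51 CPM in H1703. IFIT1 was 75.7-fold (63.4 to 91.1) and IFIT2 36.8-fold (31.5 to 43.3) higher in H1299 TICs than in H1299 parental cells, and both were higher still in H1299 knockdown TICs and lower in every library of the 3 other lines. IFIT3 stood at 317, 220 and 8.09 CPM in knockdown TICs, TICs and parental cells of H1299, at 27.8, 33.9 and 70.9 CPM in CALU, at 8.3, 5.49 and 6.63 CPM in CHAGO and at 0.232, 2.16 and 13.7 CPM in H1703. IFIT5 was measured at 142, 109 and 22.8 CPM in knockdown TICs, TICs and parental cells of H1299, at 30.3, 34.3 and 46.5 CPM in CALU, at 18.8, 16.5 and 25.7 CPM in CHAGO and at 23.4, 9.54 and 41.8 CPM in H1703. The 4 genes lie beside each other on chromosome 10 and overlap the gene model of LIPA in the GRCh38 annotation; whether reads were counted by strand is not given in the sources used here. IFIT2, IFIT3 and IFIT5, with OAS3, were the 4 genes higher in TICs than in parental cells in H1299 and lower in all 3 other lines, a pattern held by 4.06% of all tested genes. In CALU, where these genes were higher in parental cells than in H1299 parental cells, IFIT1, IFIT2 and IFIT3 were 2.24-, 2.32- and 2.09-fold lower in TICs than in parental cells.

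The OAS enzymes make 2-5A, which activates RNase L; OASL is a related protein that lacks that activity. OAS1 was at 83.2, 55.2 and 0 CPM in knockdown TICs, TICs and parental cells of H1299, at 15.7, 40.1 and 19 CPM in CALU, at 3.58, 11 and 7.14 CPM in CHAGO and at 0, 0.45 and 0 CPM in H1703. OAS2 stood at 174, 105 and 0 CPM in knockdown TICs, TICs and parental cells of H1299, at 44.3, 58.4 and 27.5 CPM in CALU, at 3.46, 3.28 and 0.15 CPM in CHAGO and at 0, 0 and 0.0727 CPM in H1703. OAS1 and OAS2 had 1709 and 3250 reads in H1299 TICs, against 0 in H1299 parental cells, at least 707-fold and 1340-fold higher at the same limit. OAS3 was measured at 589, 324 and 32.7 CPM in knockdown TICs, TICs and parental cells of H1299, at 40.8, 53.8 and 98.1 CPM in CALU, at 40.1, 46.1 and 93.6 CPM in CHAGO and at 29.6, 27.2 and 102 CPM in H1703. OASL was at 5.47, 15.7 and 0 CPM in knockdown TICs, TICs and parental cells of H1299, at 7.54, 2.32 and 8.05 CPM in CALU, at 0.687, 5.08 and 0 CPM in CHAGO and at 0, 0.045 and 1.09 CPM in H1703. OAS3 was 9.9-fold (9.34 to 10.5) higher in H1299 TICs than in parental cells, and the CALU, CHAGO and H1703 TICs were all lower than their parental cells. OASL had 487 reads in H1299 TICs against 0 in H1299 parental cells, at least 202-fold higher, and 415 reads in CHAGO TICs against 0 in CHAGO parental cells, at least 113-fold higher. OAS2 was the one OAS gene at least 2-fold higher in TICs in H1299, CALU and CHAGO.

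MX1 and MX2 are GTPases that trap viral particles, the IFITM proteins block fusion, BST2 (tetherin) holds budding virions, RSAD2 (viperin) makes a chain-terminating nucleotide, and CMPK2 is a mitochondrial nucleotide kinase whose gene overlaps that of RSAD2. MX1 stood at 48.4, 21.5 and 0.026 CPM in knockdown TICs, TICs and parental cells of H1299, at 19.6, 15.3 and 12.8 CPM in CALU and at 9.34, 11.5 and 12.8 CPM in CHAGO, with none in the H1703 libraries. BST2 was measured at 20.7, 13.8 and 0 CPM in knockdown TICs, TICs and parental cells of H1299, at 1.44, 6.02 and 0.185 CPM in CALU and at 11.1, 36.7 and 34.9 CPM in CHAGO, with none in the H1703 libraries. MX1 had 667 reads in H1299 TICs and 1 in H1299 parental cells, a ratio of 828 with an interval of 148 to 32800. BST2 had 426 reads in H1299 TICs and 0 in H1299 parental cells, at least 176-fold higher, and 499 in CALU TICs against 16 in CALU parental cells, 32.6-fold (19.9 to 57.5). IFITM1 was at 47, 66.8 and 1.87 CPM in knockdown TICs, TICs and parental cells of H1299, at 4.5, 6.4 and 4.91 CPM in CALU, at 14, 17.1 and 16.9 CPM in CHAGO and at 3.94, 5.94 and 0.436 CPM in H1703. IFITM3 stood at 72.5, 108 and 17.5 CPM in knockdown TICs, TICs and parental cells of H1299, at 12.3, 51.5 and 22.1 CPM in CALU, at 1.49, 0.71 and 0.78 CPM in CHAGO and at 73.4, 74.4 and 51.9 CPM in H1703. IFITM1 was 35.7-fold (28.2 to 45.8) and IFITM3 6.18-fold (5.69 to 6.73) higher in H1299 TICs. IFITM1, IFITM2 and IFITM3 are near copies of each other, so the split of reads among them is uncertain. MX2 was measured at 0, 2.2 and 0 CPM in knockdown TICs, TICs and parental cells of H1299, at 7.22, 7.46 and 4.95 CPM in CALU and at 0, 0.954 and 0 CPM in CHAGO, with none in the H1703 libraries. CMPK2 was at 0, 1.39 and 0 CPM in knockdown TICs, TICs and parental cells of H1299, at 3.8, 0.181 and 5.26 CPM in CALU and at 4.97, 2.2 and 11.9 CPM in CHAGO, with none in the H1703 libraries. RSAD2 stood at 0.618, 0 and 0 CPM in knockdown TICs, TICs and parental cells of H1299, at 2.27, 0.326 and 0 CPM in CALU and at 0.33, 0 and 2.57 CPM in CHAGO, with none in the H1703 libraries. RSAD2 and CMPK2, which overlap, differed in H1299. CMPK2 had 43 reads in H1299 TICs and none in either other H1299 library, while RSAD2 had 14 reads in H1299 knockdown TICs and none in either other H1299 library. In CHAGO TICs both were lower than in parental cells, RSAD2 with 0 against 171 reads.

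**Figure D3:**
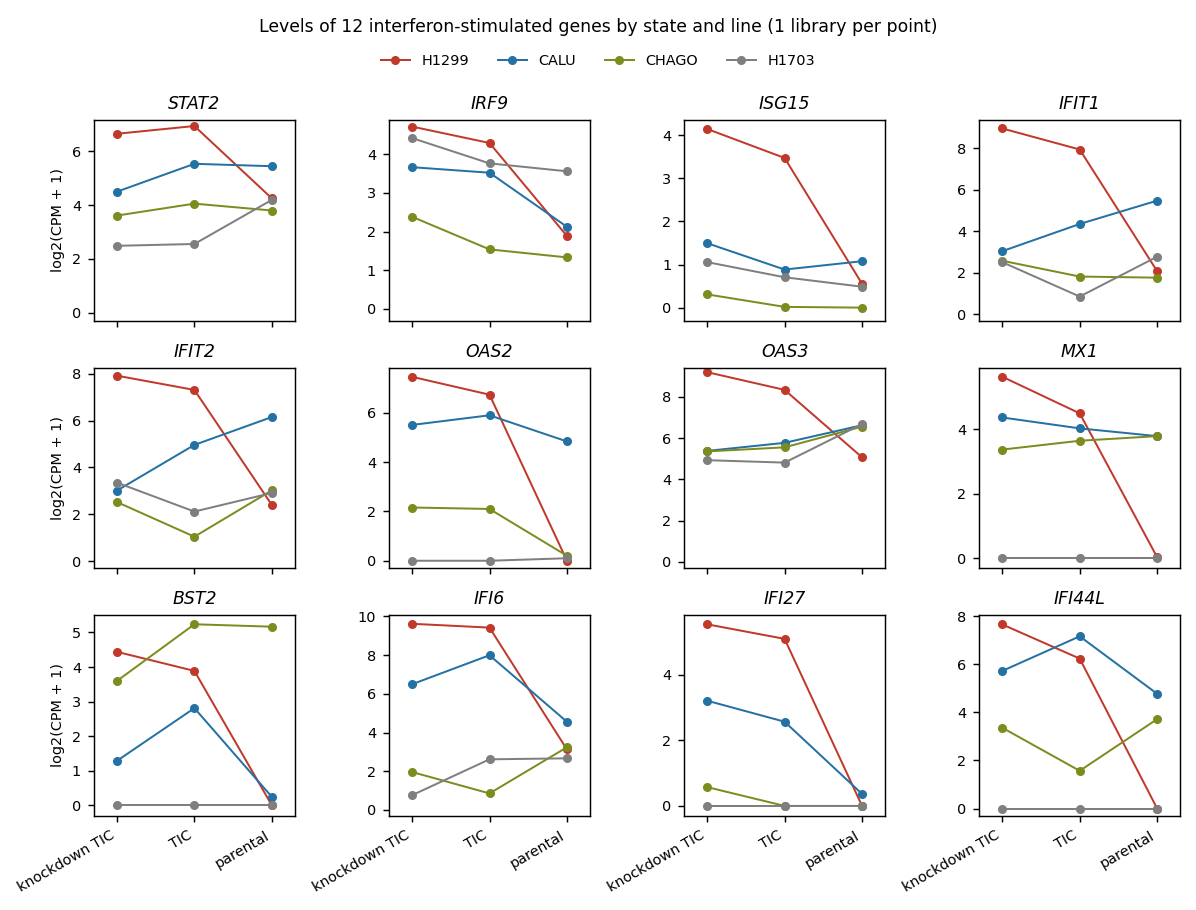
Levels of 12 of the genes (panels) in knockdown TICs, TICs and parental cells (horizontal axis), as log2(CPM + 1) on the vertical axis, with 1 point per library and 1 line per cell line. The H1299 line runs above the others in knockdown TICs for 12 of the 12 genes and is the highest line for none of them in parental cells. In TICs it lies below CHAGO for BST2 and below CALU for IFI44L. The 12 genes were picked for display. Of all 49 members, H1299 was highest for 35 in knockdown TICs, 32 in TICs and 1 in parental cells. The shares of all tested genes were 22.2%, 22% and 21.3%.

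Among the other induced genes, IFI6 and IFI27 are small membrane proteins, and IFI44L and IFI44 lie beside each other on chromosome 1. IFI6 was measured at 786, 685 and 7.72 CPM in knockdown TICs, TICs and parental cells of H1299, at 89.2, 254 and 22.5 CPM in CALU, at 2.89, 0.807 and 8.45 CPM in CHAGO and at 0.695, 5.13 and 5.35 CPM in H1703. IFI27 was at 45.7, 33.3 and 0 CPM in knockdown TICs, TICs and parental cells of H1299, at 8.27, 4.94 and 0.289 CPM in CALU and at 0.489, 0 and 0 CPM in CHAGO, with none in the H1703 libraries. IFI6 was 88.7-fold (79.1 to 99.8) higher in H1299 TICs than in parental cells and 11.3-fold (10.8 to 11.8) in CALU TICs, against 10.5-fold lower in CHAGO TICs. IFI27 had 1030 reads in H1299 TICs and 0 in H1299 parental cells, at least 426-fold higher, and 409 in CALU TICs against 25 in CALU parental cells, 17.1-fold (11.4 to 26.7). IFI44L stood at 202, 74.7 and 0 CPM in knockdown TICs, TICs and parental cells of H1299, at 52, 143 and 26.4 CPM in CALU and at 9.3, 1.97 and 12.2 CPM in CHAGO, with none in the H1703 libraries. IFI44 was measured at 181, 85 and 0.936 CPM in knockdown TICs, TICs and parental cells of H1299, at 40.2, 20.5 and 46.6 CPM in CALU, at 6.95, 8.07 and 8.25 CPM in CHAGO and at 0, 1.62 and 0.255 CPM in H1703. IFI44L had 2315 reads in H1299 TICs and 0 in H1299 parental cells, at least 958-fold higher, and was 5.41-fold (5.18 to 5.66) higher in CALU TICs. IFI44, its neighbour, was 90.8-fold (65.4 to 130) higher in H1299 TICs but 2.27-fold lower in CALU TICs. ISG20 was at 1.68, 5.59 and 0.234 CPM in knockdown TICs, TICs and parental cells of H1299, at 21.3, 12.4 and 3.96 CPM in CALU, at 3.77, 8.42 and 0.33 CPM in CHAGO and at 8.07, 1.76 and 2.33 CPM in H1703. XAF1 stood at 45.4, 6.07 and 0 CPM in knockdown TICs, TICs and parental cells of H1299, at 14.2, 16.1 and 9.95 CPM in CALU, at 0, 0 and 0.15 CPM in CHAGO and at 1.7, 5.04 and 2.44 CPM in H1703. IFI16 was measured at 42.7, 40.9 and 11.2 CPM in knockdown TICs, TICs and parental cells of H1299, at 282, 279 and 206 CPM in CALU and at 0, 0 and 1.55 CPM in CHAGO, with none in the H1703 libraries. ISG20, an exonuclease, was higher in TICs of H1299, CHAGO and CALU, at 23.9-fold (12.3 to 53.1), 25.5-fold (16.7 to 41) and 3.13-fold (2.77 to 3.55). XAF1, an apoptosis-promoting protein, was highest in H1299 knockdown TICs. IFI16, a DNA sensor, was highest in the 3 CALU libraries and had no read in any H1703 library. LGALS3BP was at 40.2, 43.1 and 0.988 CPM in knockdown TICs, TICs and parental cells of H1299, at 76.7, 151 and 63.4 CPM in CALU, at 5.17, 6.7 and 6.8 CPM in CHAGO and at 0.733, 3.38 and 0.945 CPM in H1703. PLSCR1 stood at 438, 186 and 66.5 CPM in knockdown TICs, TICs and parental cells of H1299, at 90, 69.8 and 74.3 CPM in CALU, at 92.5, 117 and 75.5 CPM in CHAGO and at 15.5, 23.5 and 40.7 CPM in H1703. LGALS3BP, a secreted glycoprotein, was 43.6-fold (31.6 to 61.9) higher in H1299 TICs. PLSCR1, a phospholipid scramblase, was 2.8-fold (2.67 to 2.93) higher, among the 4 smallest H1299 differences. IFI35 was measured at 8.25, 11.4 and 0.338 CPM in knockdown TICs, TICs and parental cells of H1299, at 2.07, 4.25 and 3.41 CPM in CALU, at 0.965, 1.65 and 0.66 CPM in CHAGO and at 8.03, 5 and 4.25 CPM in H1703. EPSTI1 was at 0, 1.39 and 0 CPM in knockdown TICs, TICs and parental cells of H1299, at 3.18, 0.326 and 0.704 CPM in CALU and at 2.04, 0 and 0.105 CPM in CHAGO, with none in the H1703 libraries. EPSTI1 had 43 reads in H1299 TICs and 0 in the other H1299 libraries.

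DDX60 is a helicase that assists RNA sensing, and SAMD9 and SAMD9L restrict translation. DDX60 stood at 142, 103 and 8.01 CPM in knockdown TICs, TICs and parental cells of H1299, at 73, 62.8 and 140 CPM in CALU, at 34.7, 22.8 and 18.8 CPM in CHAGO and at 6.25, 22.5 and 17.4 CPM in H1703. SAMD9 was measured at 681, 400 and 47.6 CPM in knockdown TICs, TICs and parental cells of H1299, at 388, 315 and 512 CPM in CALU, at 124, 57.6 and 79.7 CPM in CHAGO and at 0.193, 4.32 and 0 CPM in H1703. SAMD9L was at 111, 134 and 3.28 CPM in knockdown TICs, TICs and parental cells of H1299, at 22.9, 52.6 and 59.1 CPM in CALU and at 6.79, 5.25 and 23.2 CPM in CHAGO, with none in the H1703 libraries. DDX60 and SAMD9 were highest in H1299 knockdown TICs, and in CALU both were highest in parental cells. SAMD9L was 40.8-fold (34.1 to 49.1) higher in H1299 TICs than in parental cells. SAMD9 had 96 reads in H1703 TICs and 0 in H1703 parental cells, at least 39.6-fold higher.

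PARP9 and DTX3L form a complex and share a promoter region, SP100 and SP110 are nuclear body proteins, and PARP12 and PARP14 are ADP-ribosyltransferases. PARP9 stood at 201, 155 and 11.4 CPM in knockdown TICs, TICs and parental cells of H1299, at 12.7, 47.2 and 24.3 CPM in CALU, at 45.5, 59 and 74.3 CPM in CHAGO and at 27.4, 8.33 and 15.5 CPM in H1703. DTX3L was measured at 268, 230 and 65.5 CPM in knockdown TICs, TICs and parental cells of H1299, at 115, 137 and 102 CPM in CALU, at 138, 68.3 and 98.6 CPM in CHAGO and at 92.3, 74.2 and 69.1 CPM in H1703. PARP9 was 13.6-fold (12.3 to 15) and DTX3L 3.52-fold (3.36 to 3.69) higher in H1299 TICs; the gene models of both overlap, and reads from either cannot be told apart without strand. SP100 was at 167, 75.6 and 41.9 CPM in knockdown TICs, TICs and parental cells of H1299, at 142, 98.2 and 115 CPM in CALU, at 66.3, 60.2 and 38.8 CPM in CHAGO and at 92.6, 31.5 and 37.5 CPM in H1703. PARP12 stood at 22.4, 13.3 and 7.05 CPM in knockdown TICs, TICs and parental cells of H1299, at 9.7, 15.2 and 9.77 CPM in CALU, at 8.6, 7.17 and 8.88 CPM in CHAGO and at 4.63, 4.68 and 8.07 CPM in H1703. SP100 and PARP12 were the genes with the smallest measured H1299 differences besides RSAD2, at 1.8-fold (1.69 to 1.92) and 1.88-fold (1.61 to 2.2) higher in TICs. PARP14 was measured at 885, 577 and 157 CPM in knockdown TICs, TICs and parental cells of H1299, at 433, 379 and 286 CPM in CALU, at 294, 245 and 295 CPM in CHAGO and at 136, 129 and 165 CPM in H1703. SP110 was at 84.5, 86.9 and 15.5 CPM in knockdown TICs, TICs and parental cells of H1299, at 29.4, 30.5 and 24.9 CPM in CALU, at 26.9, 3.29 and 21.1 CPM in CHAGO and at 28.1, 27.2 and 6.47 CPM in H1703. TRIM21 stood at 6.4, 7.78 and 2.63 CPM in knockdown TICs, TICs and parental cells of H1299, at 16.4, 16.6 and 8.34 CPM in CALU, at 5.56, 2.78 and 4.43 CPM in CHAGO and at 15.6, 7.07 and 4.22 CPM in H1703. TRIM22 had no read in any H1703 or CHAGO library or in H1299 parental cells, and stood at 8.39 and 4.78 CPM in H1299 knockdown TICs and TICs, and between 7.3 and 18.5 CPM in CALU.

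GBP1 is a guanylate-binding protein, and PSMB8 and PSMB9 are subunits of the immunoproteasome, which sit beside each other on chromosome 6. GBP1 was measured at 18.7, 21.2 and 0.546 CPM in knockdown TICs, TICs and parental cells of H1299, at 26.5, 11 and 23.2 CPM in CALU, at 7.1, 1.02 and 1.4 CPM in CHAGO and at 0.116, 0 and 0 CPM in H1703. PSMB8 was at 17.1, 20.7 and 6.89 CPM in knockdown TICs, TICs and parental cells of H1299, at 20.4, 24.5 and 22.4 CPM in CALU, at 7.73, 7.73 and 2.85 CPM in CHAGO and at 1.89, 10.9 and 3.64 CPM in H1703. PSMB9 stood at 44.5, 41.7 and 4.03 CPM in knockdown TICs, TICs and parental cells of H1299, at 22.7, 22.1 and 11.3 CPM in CALU, at 4.64, 0.257 and 0.87 CPM in CHAGO and at 10.6, 29.8 and 35.1 CPM in H1703. GBP1 was 38.8-fold (25.2 to 63.2) higher in H1299 TICs than in parental cells, and was lower in CALU TICs. PSMB8 was higher in TICs than parental cells in H1299, CHAGO and H1703, at 3-fold (2.59 to 3.47), 2.71-fold (2.3 to 3.21) and 3-fold (2.36 to 3.82), and PSMB9 only in H1299 among the lines past 2-fold.

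**Figure D4:**
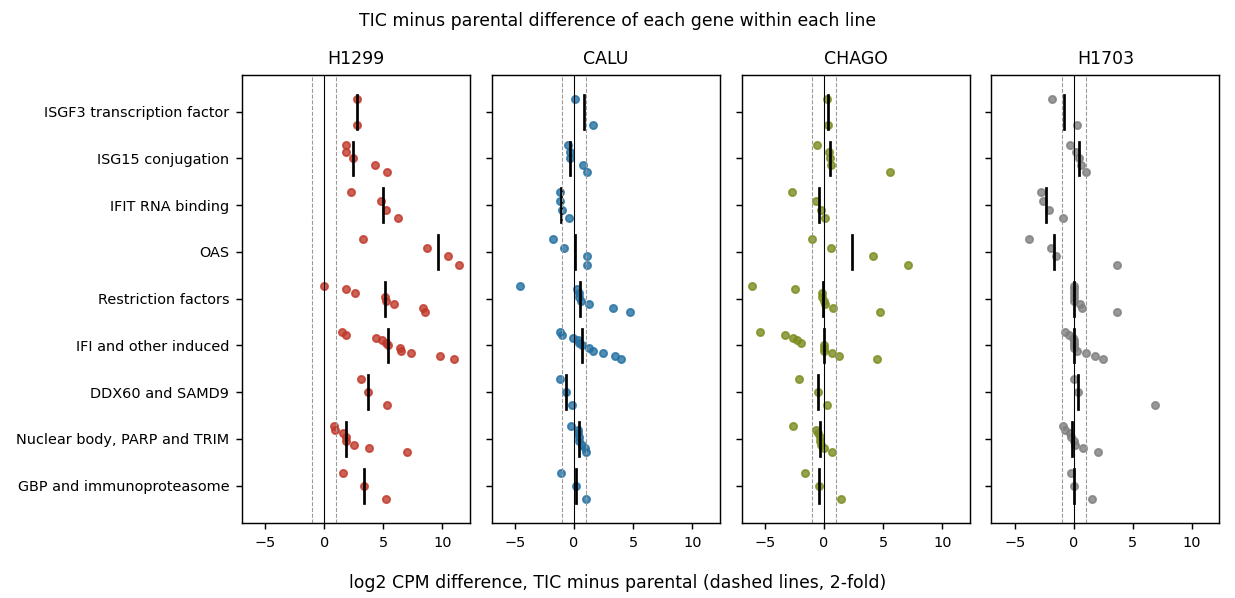
Difference of log2 CPM between TICs and parental cells (horizontal axis, dashed lines at 2-fold) for each of the 48 tested genes (points), by role (rows) and cell line (panels); the black bars are medians of a role. In H1299 the median of each of the roles lies right of the 2-fold line, while the medians in the other lines lie between −2.39 and 2.38.

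Some of the genes were 2-fold higher in TICs of other lines too, and 11 of the 12 genes higher in CALU TICs were among the 45 of H1299 (91.7% of the CALU genes and 24.4% of the H1299 genes). They were IRF9, USP18, OAS1, OAS2, IFITM3, BST2, IFI6, IFI27, IFI44L, ISG20 and LGALS3BP, and the remaining one was RSAD2, which had no read in H1299 TICs or H1299 parental cells. In CHAGO 7 of 7 were shared (15.6% of the H1299 genes), namely HERC6, OAS2, OASL, MX2, IFI35, ISG20 and PSMB8. In H1703 9 of 9 were shared (20% of the H1299 genes), namely HERC5, OAS1, IFITM1, IFI44, XAF1, LGALS3BP, SAMD9, SP110 and PSMB8. These shares stand beside the 93.8% of all 48 genes that were higher in H1299. All 9 genes 2-fold lower in CALU TICs (IFIT1, IFIT2, IFIT3, OASL, CMPK2, IFI44, EPSTI1, DDX60 and GBP1) and 11 of the 12 lower in CHAGO TICs were higher in H1299 TICs. The 12 in CHAGO were IFIT2, OAS3, RSAD2, CMPK2, IFI6, IFI44L, IFI16, XAF1, EPSTI1, SAMD9L, SP110 and PSMB9, with RSAD2 the exception. Of the 48 genes, 7 were above 0 in all 4 lines (IFI35, IFITM1, IFITM2, IRF9, OAS1, PSMB8 and USP18), beside 8.32% of all tested genes, and 0 were below 0 in all 4, beside 8.97%.

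When the lines were taken as replicates, no listed gene passed the test of TICs against parental cells. edgeR's quasi-likelihood test with the line as a block called 0 of the 48 after Benjamini-Hochberg adjustment (0.0286% of all genes), and the smallest adjusted p was 0.289. At an unadjusted p under 0.05 it counted 4 members, ISG20, MX2, IFI27 and IFITM2, all higher (11.8% of all genes). DESeq2 called 1, ISG20 (3.66% of all genes), limma voom called 1 of the 48 and limma on the authors' mode-normalized values called 0. The median log2 fold change was 0.76, above 0 in 39 of the 48, against −0.02 for all tested genes. Without H1299 the median was 0.09 and 28 of 48 were above 0, so the estimate rested on that line. Knockdown TICs against parental cells gave 0 called members (0.0357% of all genes; smallest adjusted p 0.241), with 5 at an unadjusted p under 0.05 (10.7%). DESeq2 called 2, IRF9 and SP100 (2.86%), and voom and the mode-normalized values 0. The median was 0.72, against −0.03 without H1299.

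H1299 was then set against the mean of the 3 other lines within each state, in 1 model with line, state and an H1299-by-state term. In parental cells edgeR called 0 of the 48 members (1.38% of all genes), with 7 at an unadjusted p under 0.05 and all 7 lower in H1299 (15.2% of all genes). DESeq2 called 9, all lower (8.95%), voom 0 and the mode-normalized values 4, and edgeR without H1703 called 1. UBE2L6 had the smallest adjusted p, with a log2 fold change of −4.38 ± 0.87 (SE; adjusted p 0.0605). In TICs edgeR called 6 members, all higher in H1299, beside 1.58% of all genes called higher. They were OAS3 (log2 fold change 2.97 ± 0.32, adjusted p 0.018), SAMD9L (7.31 ± 0.82, 0.0249), IFIT1 (5.93 ± 0.94, 0.0301), GBP1 (5.38 ± 1.01, 0.042), IFIT5 (2.56 ± 0.5, 0.0467) and IFIT2 (4.89 ± 0.97, 0.0484). In knockdown TICs it called 11, all higher, beside 1.35% of all genes. OAS3 (4.01 ± 0.32, adjusted p 0.00899), SAMD9L, IFIT1, MX1, OAS1, OAS2, STAT2, PLSCR1, PARP14, HERC5 and IFIT5 passed, with fold changes from 1.77 (PARP14) to 7.56 (SAMD9L). Each of these calls used the spread left within lines and took the single H1299 library to vary like the others. With that spread replaced by the one between lines, an alternative added after the data were seen, 0 members were called in either state. It called 0 of all 14008 genes too, so the 0 is not particular to the members. At an unadjusted p under 0.05 it counted 6 members in TICs and 10 in knockdown TICs, beside 595 and 509 of all 14008 genes. Without CHAGO the calls were 0 in TICs and 1 in knockdown TICs, and without H1703 they were 0 and 1. The share of all tested genes called in the runs without a line is not given here, and those runs had fewer residual degrees of freedom. A loss of calls particular to the members cannot be told from a general one. Without H1703, GBP1, SAMD9L, MX1, OAS1 and OAS2, which had few or no reads in H1703, had smaller fold changes. SAMD9L and GBP1 stood at 2.88 and 2.65 in TICs, and MX1, OAS1 and OAS2 at 1.8, 3.45 and 3.69 in knockdown TICs.

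**Figure D5:**
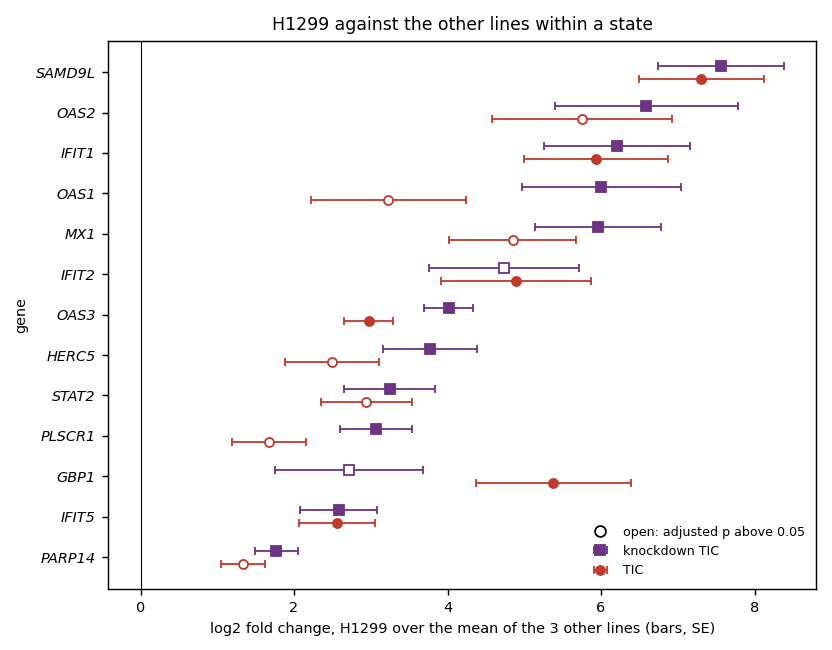
Log2 fold change of H1299 over the mean of the 3 other lines (horizontal axis) for the 13 genes called in either state. Squares are knockdown TICs and circles are TICs. Bars are SE derived from edgeR's F statistic, and open symbols did not pass an adjusted p of 0.05. All 26 points lie right of 0, from 1.33 for PARP14 in TICs to 7.56 for SAMD9L in knockdown TICs.

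The difference between H1299 and the other lines in the TIC minus parental change was tested as its own term. Its estimate was above 0 for 48 of 48 members, with a median of 4.41 log2 units against −0.02 for all tested genes. edgeR called 0 members and 0 genes (0% of all genes), with 27 members at an unadjusted p under 0.05, all with an estimate above 0 (6.25% of all genes), and the smallest adjusted p was 0.361, for OAS3 (estimate 4.57 ± 0.55 SE). DESeq2 called 16 members (1.25% of all genes), voom and the mode-normalized values 0. For knockdown minus TIC the test called 0 members (0% of all genes), with 2 at an unadjusted p under 0.05 (4.02%), CMPK2 and EPSTI1, both lower, and DESeq2 (0.55% of all genes), voom and the mode-normalized values called 0.

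By rank, H1299 was the highest of the 4 lines for 35 of the 49 members in knockdown TICs and for 32 in TICs, against 1 in parental cells (22.2%, 22% and 21.3% of all tested genes). CALU held that place for 33 members in parental cells (26.3% of all tested genes). Against CALU alone, H1299 was at least 2-fold higher for 31 of 48 genes in knockdown TICs (24.4% of all tested genes) and for 24 in TICs (23.3%), against 0 in parental cells (23.4%). CALU was at least 2-fold higher for 7 genes in knockdown TICs (25.5%) and for 8 in TICs (26.5%), against 36 in parental cells (24.5%).

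Compared with H1299 TICs, H1299 knockdown TICs had 10 members 2-fold higher and 5 lower (16.5% and 17.7% of all genes), near the background. CALU had 6 higher and 15 lower (12.7% and 17.5%), CHAGO 16 higher and 5 lower (12.7% and 13%), and H1703 9 higher and 13 lower (16.6% and 16.7%). The shares lower in CALU (31.2%) and H1703 (27.1%) and the share higher in CHAGO (33.3%) lay above the background. The direction thus differed between lines, with 1 library per state and no test. In H1299 the members higher by most after knockdown were RSAD2, with 14 against 0 reads, XAF1, 7.48-fold (6.4 to 8.79), and USP18, and those lower by most were MX2, with 0 against 68 reads, CMPK2 and EPSTI1, with 0 against 43 reads each. In the test across lines, edgeR called 0 members (0.0143% of all genes) with 2 at an unadjusted p under 0.05 (4.28%), SP100 higher and MX2 lower. DESeq2 (0.0785%), voom and the mode-normalized values called 0, and the smallest adjusted p was 0.98. SP100, IRF9, ISG15 and PARP14 were above 0 in all 4 lines and STAT2, IFITM1, PSMB8 and LGALS3BP below 0 in all 4, beside 7.23% and 7.14% of all tested genes.

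Of 11 tested nucleic acid sensors and adaptors, 5 were 2-fold higher and 2 lower in H1299 TICs than in H1299 parental cells. Of all tested genes, 21.3% were higher and 20.7% lower. The RNA sensors DDX58 (RIG-I) and IFIH1 (MDA5) were called higher in H1299 than in the other lines by edgeR, with adjusted p 0.0231 and 0.0244 in knockdown TICs and 0.0189 and 0.0335 in TICs. Over all 14008 tested genes, edgeR called 1.35% higher in H1299 in knockdown TICs and 1.58% in TICs, and it called 66 and 97 genes lower. Of 35 tested further interferon-stimulated genes, chosen with earlier results known, 22 were 2-fold higher and 1 lower in H1299 TICs, beside the same 21.3% and 20.7%. Of 21 interferon ligands, 15 had no read in any library. IFNE, the 1 ligand that passed the filter, was at 5.44, 1.77 and 2.09 CPM in CALU knockdown TICs, TICs and parental cells. In H1299 it was at 0, 0.0323 and 0 CPM. IFNK was highest in CHAGO TICs, at 1.43 CPM. The summed ligand level in knockdown TICs was 1.1 CPM in H1299 and ran from 0.347 to 5.51 CPM over the lines. IFNB1 was seen in 2 libraries, at 1.1 CPM in H1299 knockdown TICs and 0.0705 CPM in CALU knockdown TICs, and CXCL11 in H1299 knockdown TICs alone, at 1.94 CPM. IRF7, which failed the filter, was at 0.397, 1.39 and 0.13 CPM in H1299 knockdown TICs, TICs and parental cells. Among those 35, edgeR called SHISA5 higher in H1299 in knockdown TICs (adjusted p 0.0434) and in TICs (0.0328), and HLA-B, an antigen-presenting molecule, higher in knockdown TICs (0.0497). It called MYD88, a toll-like receptor adaptor, lower in H1299 in both states (adjusted p 0.0283 in knockdown TICs and 0.035 in TICs).

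Leukocytes also express many of these genes, so their markers were measured. Of 15 leukocyte markers, CD3D, CD3E, MS4A1, TYROBP and NKG7 had no read in any library, and PTPRC had none in any H1299 library. Their summed level ran from 151 to 810 CPM in knockdown TICs, 101 to 647 in TICs and 1.55 to 417 in parental cells. In H1299 it was 523, 531 and 264 CPM in the same order, of which CD68 alone, a lysosomal protein, held 523, 530 and 264. Fewer cells of a type and less RNA per cell cannot be told apart in such bulk libraries.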

How the data were processed

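The 12 libraries are 1 per combination of 4 lines and 3 states, and the labels name the line and state of each. RNA was taken with Qiagen RNeasy and amplified with NuGEN kits, per the labels' protocols. The submitters' processing notes name CASAVA 1.4, TopHat 1.4, HTSeq 0.5.3p3 and the genome build hg19. The authors deposited raw read counts per gene and a second, mode-normalized table. Its values were treated as a score, since the authors scaled each library by 1 factor and rounded, as a comparison of the deposited tables showed; log2(value + 1) was used. Gene symbols were used as deposited, and 26 symbols had been turned into dates.

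Counts were tested with edgeR 4.0.16 in R 4.3.3 (quasi-likelihood, robust, TMM, Benjamini-Hochberg over 14008 genes, threshold 0.05), with line and state as terms and 6 residual degrees of freedom. H1299 was compared with the other lines by adding an H1299-by-state term, which left 4. Standard errors were derived from edgeR's log2 fold changes and F statistics. Within-line differences are in log2 CPM (prior count, 2) and have no test. Ratios carry exact 95% binomial intervals, and a gene with 0 reads was set to 3 reads per library for a bound. DESeq2 1.42.0 and limma 3.58.1 were alternatives, and the tests were tried on simulated data. After the mean of the lines in each state was subtracted, same-line libraries deviated together, with a correlation of 0.553 to 0.76 over 12 pairs. The 36 pairs of different lines gave −0.414 to −0.0601. The subtraction itself pushes those values below 0, so only the same-line values bear on the pairing. The line was used to pair the samples. Nothing says that libraries came from separate cultures, so p-values measure the spread between these libraries.

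The genes named with a value in every library were a set list, the 4 with the largest and the 4 with the smallest H1299 differences, and those past 2-fold in CALU or CHAGO; some further members were added. Members and lists were chosen with earlier results of these data known. Promoters came from a RefSeq table of GRCh38.p14, used for sequence and neighbouring genes only. Proteins were not used here.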

Additional observations from a re-analysis of the deposited data

Results flagged for a closer look

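Each gene chosen by the naming rule was examined over the 4 lines in each state, and 11 of 96 such sets had 1 library far from the other 3. The measure was the gap to the nearest library over the whole range of log2 values, set against Dixon's critical value for 4 samples. Chance gives about 1 in 20 for genes named beforehand, but some of these were named for differences in these same libraries. The number of flagged sets therefore cannot be set against chance. A value of 1 marks a set in which the other 3 lines had no reads. In knockdown TICs, H1299 was high for IFIT1 (0.908) and IFIT2 (0.832), and CALU was high for MX2 (1), the one line with reads. In TICs, H1703 was low for MX1 (0.902), CHAGO was low for IFITM3 (0.851) and PSMB9 (0.872), and CALU was high for RSAD2 (1). In parental cells, CALU was high for IFI27 (1, on 25 reads), MX2 (1) and SP100 (0.9), and CHAGO was high for RSAD2 (1).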

How the results depend on the processing

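No gene that passed the test changed sign under the alternatives run. The median over the members did without H1299, at −0.15 against 0.12 for knockdown TICs against TICs and −0.03 against 0.72 for knockdown TICs against parental cells. For H1299 against the other lines in TICs, the 6 called members became 10 with library totals, 22 with DESeq2, 23 with voom and 15 at an adjusted p of 0.1 (2.79%, 12.6%, 5.28% and 5.76% of all genes called in either direction, against 2.27%), and 0 to 10 with 1 line left out. In knockdown TICs the 11 became 25 with DESeq2, 27 with voom and 18 at 0.1 (10.6%, 4.07% and 4.96%, against 1.82%), and 1 to 11 with 1 line left out. Without the line block (no replicate block, for these comparisons added after the data were seen) both became 0, and TICs against parental cells stayed at 0, with 0% of all genes called in each. In parental cells the 0 became 9 with DESeq2, 4 with the mode-normalized values, 1 at 0.1 (8.95%, 2.31% and 3.21%), and 0 to 1 with 1 line left out. TICs against parental cells had 1 with DESeq2 and 1 with voom (3.66% and 1.21%), knockdown TICs against parental cells 2 with DESeq2 (2.86%), and the H1299 difference in the TIC minus parental change 16 with DESeq2 (1.25%). The cause was not tested. For the runs with 1 line left out, the share of all genes called is not given here, so their counts cannot be set beside it. At 4-fold, TICs against parental cells had 5 members higher and 1 lower in CALU (8.92% and 6.39% of all genes), 5 and 9 in CHAGO (6.49% and 8.49%), and 5 and 4 in H1703 (7.96% and 7.92%). Knockdown TICs against TICs had 3 higher (7.32%) and 3 lower (8.02%) in H1299, 3 higher (5.25%) and 4 lower (8.05%) in CALU, 9 higher (6.03%) and 2 lower (5.44%) in CHAGO, and 3 higher (7.79%) and 7 lower (7.88%) in H1703. The mode scaling moved the median of all genes to 0.38 for that H1299 difference, −0.42 for H1299 in parental cells, 0.11 for TICs against parental cells and −0.12 for H1299 in knockdown TICs. Low levels rest on few reads: 3 reads are 0.0346 to 0.135 CPM.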
